A study of Mus musculus with 22 samples.

Results

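The 46 genes described here act in mitosis or in the G2/M transition that leads to it. They were chosen by their known role, but with earlier results of these data known, so the list is not independent of them. All 46 had a probe set among the 18193 genes that the arrays name. The genes were measured in CD8α- DCs, dendritic cells sorted as CD11c+CD8α- from CD45+ pancreas cells of female mice 5 weeks old, from NOD mice, which develop autoimmune diabetes, and from C57BL/6 mice as controls. RNA came either from freshly sorted cells (steady state, 4 C57BL/6 and 3 NOD arrays) or after 18 h of culture with PBS (4 arrays per strain) or with lipopolysaccharide (LPS, a bacterial cell wall component that activates DCs; 3 C57BL/6 and 4 NOD arrays). Cells were pooled from 10 pancreases, an array is 1 replicate of its group, and part of each sort was lysed at once and part cultured, so arrays of different groups can come from the same pool. All values are log2 expression, where a difference of 1 is a factor of 2, and they compare samples for the same gene but not the levels of different genes. A gene was called where its limma adjusted p over all probe sets was under 0.1.

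A dividing cell enters mitosis when cyclins of the A and B types activate the kinase Cdk1, and Aurora and Polo kinases help to build the spindle. Kinetochores then attach the chromosomes to spindle microtubules while the spindle checkpoint holds the cell in metaphase. Once that hold ends, the anaphase-promoting complex lets the sister chromatids part, and the cell splits at cytokinesis. The mRNAs of this program are made mostly in G2 and M, so in a mixed population their level is widely used as a measure of how many cells are cycling. In such bulk samples fewer cycling cells and less RNA per cycling cell cannot be told apart. DC precursors and part of the tissue DCs divide, while mature DCs are regarded as largely non-dividing.

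The sorted cells carried the defining DC transcripts. Itgax (CD11c) lay between 8.11 and 11.39, Flt3 between 8.76 and 10.14, Zbtb46 between 9.41 and 10.37 and H2-Aa between 12.47 and 14.15, all above the array medians of 7.633 to 7.684. The macrophage transcripts Csf1r (12.89 to 14.88) and Adgre1 (11.64 to 13.18) were also high, and the acinar enzyme transcript Cpa1 lay at 12.35 to 13.64 at steady state and 8.07 to 11.86 after culture. Transcripts of NK cells and innate lymphoid cells (ILCs) differed between the strains and are given beside the results. NOD LPS replicate 1 stood apart the most in the mitosis genes. It was the highest of the 4 NOD LPS arrays for 39 of the 46 genes, against 26.6% of all genes. Its B cell markers summed to a linear level of 7616 against 2755 to 3857 in the other 3 arrays. C57BL/6 LPS replicate 4 was the lowest of the 3 C57BL/6 LPS arrays for 34 of the 46 genes, against 31.5% of all genes. Its B cell markers summed to 5324, against 8820 and 8878 in the other C57BL/6 LPS arrays. NOD steady state replicate 4 was the lowest of its group for 32 genes, against 40.3% of all genes. Counts of called members and medians over the 46 genes that rest on NOD LPS replicate 1 are given with and without it. Single differences are given mainly with all arrays.

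**Figure D1:**
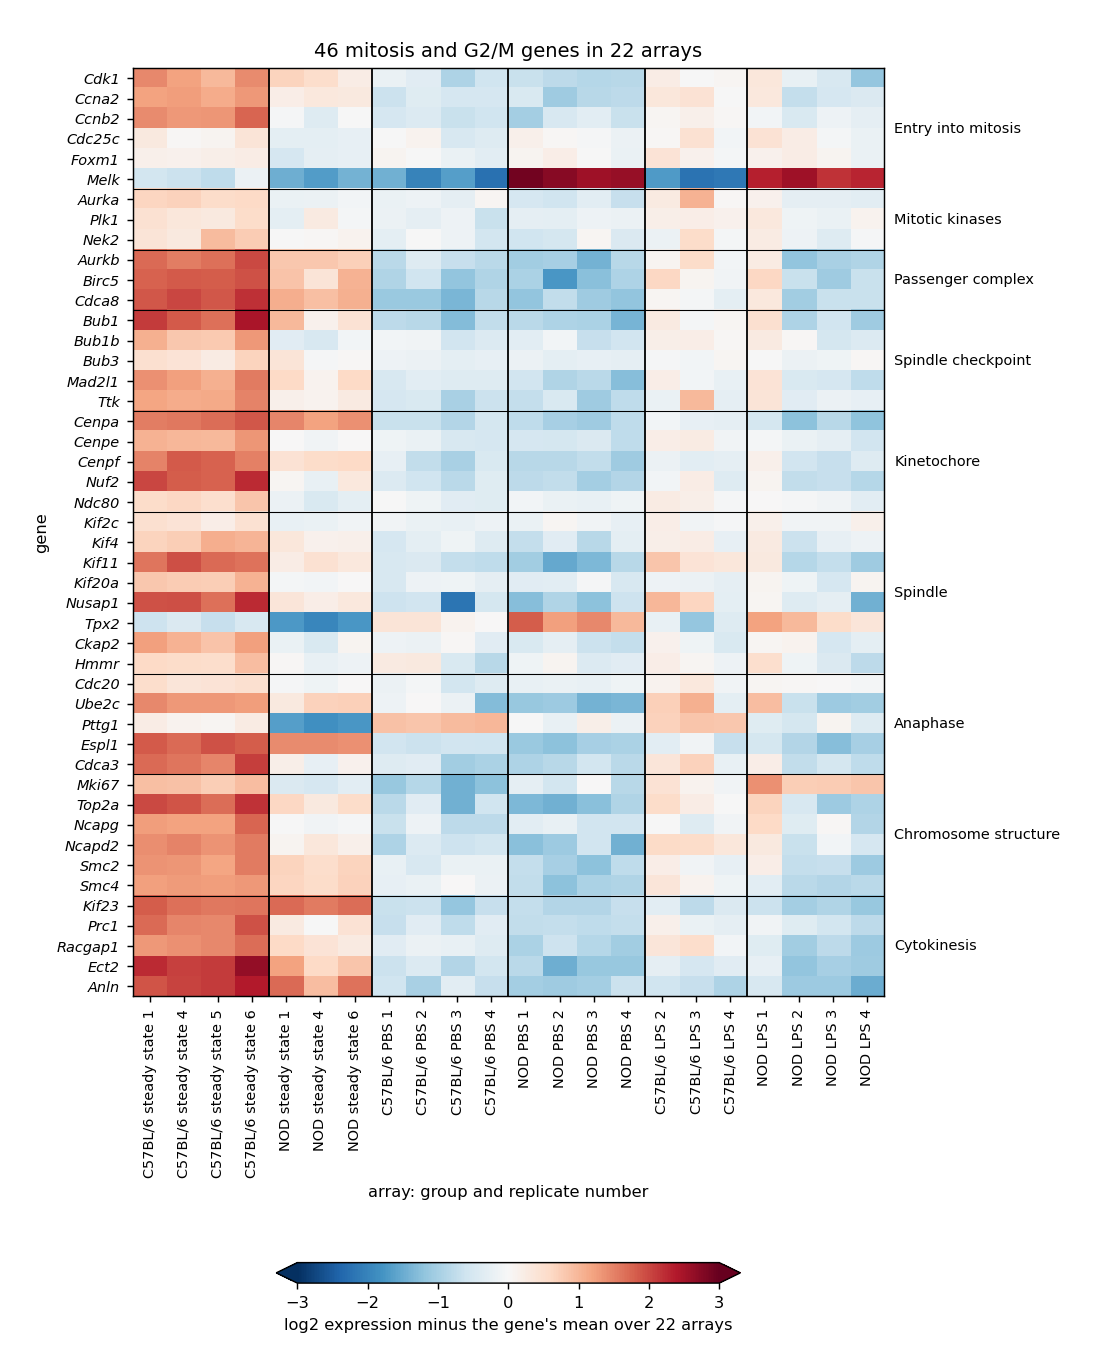
Each row is 1 of the 46 genes, grouped by role, and each column 1 of the 22 arrays, with colour giving the log2 expression minus the gene's mean over all arrays (red higher, blue lower, colours saturating at 3). The C57BL/6 steady state columns are the reddest for nearly all rows, NOD steady state is paler, and cultured cells are mostly blue, while Melk, Tpx2 and Pttg1 run against that pattern.

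At steady state the mitosis and G2/M genes were lower in NOD CD8α- DCs than in C57BL/6 CD8α- DCs, and all 46 differences were negative. Of the 46 genes, 43 were lower and 3 did not pass the test, where 8.35% of all 18193 genes were lower and 6.87% higher. The differences ran from −1.91 to −0.02 with a median of −0.95, a factor of 1.94, beside a median of 0.03 over all genes. For 44 of the 46 genes every NOD pool lay below every C57BL/6 pool, which was so for 11.6% of all genes. The mean over the 46 genes was 9.51 ± 0.12 (SD, n = 4) in C57BL/6 and 8.52 ± 0.087 (SD, n = 3) in NOD.

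Several of these genes share sequence elements known to time transcription to G2 and M. The CCAAT box is bound by NF-Y, and the TTTGAA element, called CHR, is bound by the MuvB complexes that repress these genes in resting cells and activate them in G2. Windows of the 250 bases before the start were given by RefSeq (GRCm38.p6) for 39 of the 46 genes and were searched on both strands. The motifs were the CCAAT box, the CHR element TTTGAA and, for E2F-type sites, the letters TTTGGCG with the variant spelling TTTCGCG, and no motif contains another. CCAAT was found in 30 of the 39 windows (76.9%) against 34.5% of all 27025 windows, and TTTGAA in 15 (38.5%) against 16.3%. Both together were found in 14 windows (35.9%) against 5.73%, and the E2F-type letters in 3 (7.69%) against 1.96%. Among the genes measured on the arrays these shares were 35.7%, 11.9%, 4.38% and 2.87%. A match describes letters in a window and is no measured binding site.

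The windows of Ccnb2 (chr9:70421555-70421804, minus strand), Top2a (chr11:99024190-99024439, minus strand), Ncapg (chr5:45669675-45669924, plus strand) and Kif11 (chr19:37376132-37376381, plus strand) are shown because these 4 genes had the largest steady state strain difference among the members with both elements. That of Melk (chr4:44300667-44300916, plus strand) was added after its values were seen, because Melk had the largest difference in culture, and it holds none of the letters searched. Capitals mark CCAAT and TTTGAA on either strand.
Ccnb2: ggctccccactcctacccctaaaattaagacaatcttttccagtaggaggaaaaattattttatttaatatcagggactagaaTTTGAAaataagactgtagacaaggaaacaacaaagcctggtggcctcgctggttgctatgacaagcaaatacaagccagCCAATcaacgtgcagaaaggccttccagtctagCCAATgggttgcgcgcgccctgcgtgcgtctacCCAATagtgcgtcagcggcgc
Top2a: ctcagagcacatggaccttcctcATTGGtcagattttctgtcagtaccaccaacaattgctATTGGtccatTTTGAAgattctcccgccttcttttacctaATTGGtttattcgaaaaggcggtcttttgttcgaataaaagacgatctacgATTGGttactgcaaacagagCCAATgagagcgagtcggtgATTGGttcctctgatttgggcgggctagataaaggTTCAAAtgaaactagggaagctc
Ncapg: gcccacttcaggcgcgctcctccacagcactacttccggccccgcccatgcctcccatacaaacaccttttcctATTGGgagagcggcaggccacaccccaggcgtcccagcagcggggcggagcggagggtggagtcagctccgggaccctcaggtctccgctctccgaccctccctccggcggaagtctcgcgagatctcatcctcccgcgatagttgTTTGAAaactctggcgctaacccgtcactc
Kif11: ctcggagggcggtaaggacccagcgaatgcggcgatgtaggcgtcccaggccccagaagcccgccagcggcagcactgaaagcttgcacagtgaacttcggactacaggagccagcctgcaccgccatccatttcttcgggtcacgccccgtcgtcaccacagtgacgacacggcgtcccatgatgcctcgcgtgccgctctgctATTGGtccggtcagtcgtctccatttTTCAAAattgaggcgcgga
Melk: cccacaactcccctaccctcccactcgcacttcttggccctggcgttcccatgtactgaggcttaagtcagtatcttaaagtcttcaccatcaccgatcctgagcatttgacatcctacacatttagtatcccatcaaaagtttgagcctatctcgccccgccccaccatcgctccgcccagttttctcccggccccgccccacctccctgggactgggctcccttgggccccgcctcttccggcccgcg

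The genes of mitotic entry were lower in NOD at steady state in 6 of 6 cases. Ccnb2, which encodes cyclin B2, a partner of Cdk1, stood at 9.75, 9.78, 9.87 and 10.21 in the C57BL/6 pools and at 8.07, 8.42 and 8.44 in the NOD pools. The strains did not overlap, and the log2 difference was −1.59 (SE 0.14, adjusted p = 3.88e-05). Cdk1 itself had a difference of −0.79 (SE 0.15), smaller than that of its cyclin partner Ccnb2. Ccna2, encoding cyclin A2, differed by −0.95, between those 2 values. Foxm1, the transcription factor that drives many G2/M genes, differed by −0.51, and Cdc25c, a phosphatase that activates Cdk1, by −0.48. Melk, a kinase of cycling progenitor cells, differed by −0.98 (SE 0.14, adjusted p = 0.00113).

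The 3 mitotic kinases grouped here showed some of the smaller differences. The NOD minus C57BL/6 difference was −0.77 (SE 0.089) for Aurka, the Aurora A kinase of the centrosome, −0.56 for Nek2, a kinase of centrosome separation, and −0.43 for Plk1, the Polo kinase. The chromosomal passenger complex corrects faulty attachments and includes the Aurora B kinase. The 3 of its genes that are among the 46 were lower by similar amounts, at −0.94 for Aurkb, −1.06 for Birc5 (survivin) and −0.96 for Cdca8 (borealin).

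Genes of the kinetochore and of the spindle checkpoint held the largest fall and 2 of the 3 genes that did not pass. Nuf2, a subunit of the NDC80 complex that binds microtubules, stood at 8.16, 8.20, 8.38 and 8.62 in C57BL/6 and at 6.16, 6.44 and 6.70 in NOD. These ranges are separated by more than the spread within either strain, with a log2 difference of −1.91 (SE 0.15, adjusted p = 1.88e-05). Ndc80, its partner in the same complex, differed by −0.93. Cenpf and Cenpe, which act at the outer kinetochore, differed by −1.13 and −1.11. Cenpa, the histone variant that marks the centromere, differed by −0.32 and did not pass (SE 0.11, adjusted p = 0.11). In the checkpoint, Bub1 (−1.50), Bub1b (−1.30), Ttk (−1.06) and Mad2l1 (−0.88) were lower. Bub3, the adaptor that carries Bub1 to the kinetochore, was at 11.62 to 12.03 in C57BL/6 and 11.34 to 11.76 in NOD, and the ranges overlapped (log2 difference −0.32, SE 0.13, adjusted p = 0.17). Bub3 passed with a difference of −0.39 when replicate numbers were blocked. NOD steady state has no replicate 5, so that block also takes C57BL/6 steady state replicate 5 out of the estimate. This array had the lowest C57BL/6 Bub3 value (11.62). Cenpa passed without the dimmer 50% of probe sets.

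All 8 spindle genes and all 5 genes of anaphase were lower in NOD. Nusap1, a microtubule-binding protein of the spindle, and Kif11, the motor that pushes spindle poles apart, differed by −1.64 and −1.39. Tpx2, which activates Aurora A on the spindle, differed by −1.26. Pttg1, encoding securin, the inhibitor of the protease separase, stood at 12.98, 13.02, 13.14 and 13.18 in C57BL/6 and at 11.09, 11.18 and 11.28 in NOD. Each strain was tight and the gap wide (log2 difference −1.90, SE 0.098, adjusted p = 7.44e-07), and all 3 Pttg1 probe sets were lower. Espl1, encoding separase itself, differed by −0.42. Cdca3, a target of the anaphase-promoting complex that promotes mitotic entry, had the second largest difference of this group at −1.70.

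Genes of chromosome structure were lower in 6 of 6 cases. The condensin subunits Ncapg (−1.40) and Ncapd2 (−1.26), which belong to the condensin I complex, differed more than Smc2 (−0.73) and Smc4 (−0.64), which all condensins share, and the differences between these genes were not tested. Top2a, the topoisomerase that untangles sister chromatids, differed by −1.44 and Mki67, which coats mitotic chromosomes, by −1.27. In cytokinesis, Prc1 (−1.39), Ect2 (−1.37), Racgap1 (−1.02) and Anln (−0.68) were lower. Kif23, the motor that pairs with the product of Racgap1 in the central spindle, was at 10.86, 10.87, 10.92 and 11.10 in C57BL/6 and at 10.83, 10.96 and 10.97 in NOD. These values overlapped, with a log2 difference of −0.02 (SE 0.099, adjusted p = 0.92). Averaged over its 3 probe sets, Kif23 differed by 0.15.

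31 of the 46 genes had further probe sets, 60 in all, of which 32 were lower in NOD, none was higher by limma and the others did not pass. Of all 45037 probe sets 3576 were lower and 3193 higher. In 12 of the 31 genes every probe set was lower, and with a gene's probe sets averaged the median over the 46 genes was −0.79. The count moved little when an array was left out, with 41 genes called when C57BL/6 steady state replicate 6 was left out and 44 when NOD steady state replicate 1 was. The former array was the highest of its group for 33 of the 46 genes, against 36.5% of all genes.

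The wider cell cycle lists were lower in smaller shares. Of 77 other mitosis genes 48 were lower and 2 higher, with a median of −0.48, and of 41 S phase genes 26 were lower and none higher, with a median of −0.47. Among 12 genes of G1, Ccnd1 (cyclin D1) was lower at −1.13 and Ccnd3 (cyclin D3) higher at 0.44, and 5 in all were lower and 1 higher. Of 25 brakes on the cell cycle 6 were lower and 1 higher. The inhibitors Cdkn1a (p21), Cdkn1b (p27) and Cdkn2c (p18) were among the lower genes, at −0.58, −0.59 and −0.72, and the 1 higher gene was Gadd45a at 0.72.

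Transcripts of NK cells and ILCs were lower in the same arrays. Of 16 markers, 12 were lower and 1 higher in NOD, with a median of −1.03, and Ncr1, their defining receptor, was at 8.49 to 8.62 in C57BL/6 and 6.92 to 7.33 in NOD. Summed on the linear scale the markers reached 11857 to 14188 in C57BL/6 and 7044 to 8134 in NOD, without overlap. B cell markers had 1 of 10 lower with a median of −0.06, T cell markers 4 of 10 higher with a median of 0.28, macrophage and monocyte markers 5 of 18 lower and 1 higher with a median of −0.10, DC markers 5 of 15 lower with a median of −0.24, and acinar and islet transcripts 1 of 9 higher with a median of −0.12. The part of these cells in the steady state result was not tested.

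**Figure D2:**
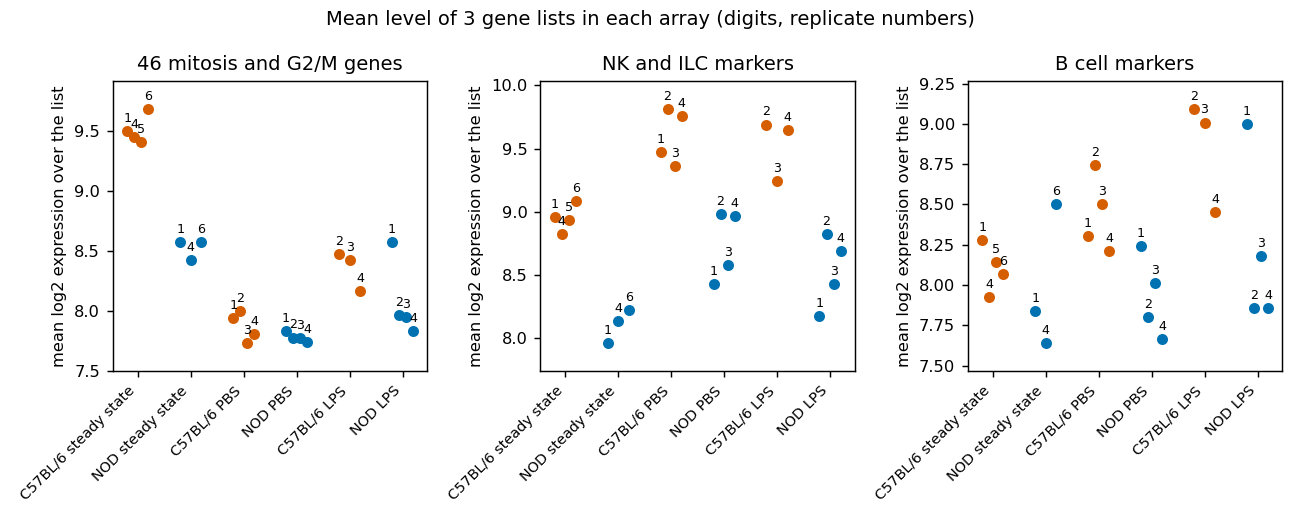
Each point is the mean log2 expression over a gene list in 1 array, for the 46 mitosis and G2/M genes (left), 16 NK and ILC markers (middle) and 10 B cell markers (right), with C57BL/6 in orange, NOD in blue and the replicate number at each point. The 46 genes lie at 9.41 to 9.68 in C57BL/6 steady state and 8.42 to 8.57 in NOD steady state, and NOD LPS replicate 1 lies above the other NOD LPS arrays for both the 46 genes and the B cell markers.

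After 18 h in PBS most members did not pass the strain comparison, and those that did went both ways. In PBS culture 10 of the 46 genes were lower in NOD and 3 higher, where 5.28% of all genes were lower and 5.43% higher, and the median was −0.21 beside 0.04 over all genes. The mean over the 46 genes was 7.87 ± 0.12 (SD, n = 4) in C57BL/6 and 7.78 ± 0.037 (SD, n = 4) in NOD. The lower genes were Pttg1 (−0.97), Ube2c (−0.85), Smc4 (−0.80), Smc2 (−0.65), Kif11 (−0.59), Racgap1 (−0.59), Ect2 (−0.52), Mad2l1 (−0.49), Espl1 (−0.48) and Aurka (−0.39). Ube2c is the ubiquitin enzyme of the anaphase-promoting complex, so 3 of the 5 anaphase genes were in this set. The count fell to 8, of which 5 were lower, without either C57BL/6 PBS replicate 1 or C57BL/6 PBS replicate 2. Over the markers, 9 of 16 of NK cells and ILCs were lower in NOD with a median of −0.88, and 3 of 10 of B cells with a median of −0.39, and their part in these differences was not tested.

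With LPS in the culture 6 genes were lower in NOD and 3 higher, against 5.43% and 5.21% of all genes. The lower genes were Kif11 (−1.12), Pttg1 (−1.09), Racgap1 (−1.09), Smc4 (−0.81), Cenpa (−0.76) and Ncapd2 (−0.73). In all, 40 of the 46 differences were negative, with a median of −0.37. This comparison turned on 1 array: without NOD LPS replicate 1, 23 genes were called, 20 of them lower, and the median was −0.50. With the replicate number as a block 29 genes were called, 26 lower and 3 higher. The share of all genes called was computed only with all arrays and without a block, so the 23 and the 29 have no such share beside them. C57BL/6 LPS has no replicate 1, so the block also takes NOD LPS replicate 1 out of the strain estimate, and the blocked median was likewise −0.50. The NK cell and ILC markers were lower in NOD in 9 of 16 cases with a median of −1.02. B cell markers were negative in 9 of 10 cases, 2 of them called, with a median of −0.51, or −0.71 without NOD LPS replicate 1. Acinar and islet transcripts were positive in 7 of 9 cases, 1 of them called, with a median of 0.54. The part of these cells was not tested.

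Melk, Tpx2 and Mki67 were the 3 genes that were higher in NOD in either culture, although all were lower in NOD at steady state. Melk showed the widest gap. In PBS culture it stood at 7.06, 7.30, 7.65 and 7.85 in C57BL/6 and at 11.83, 11.91, 12.02 and 12.18 in NOD, and in LPS culture at 7.07, 7.16 and 7.59 in C57BL/6 and 11.46, 11.59, 11.63 and 11.83 in NOD. The strains were far apart in both cultures, by 4.52 (SE 0.17, adjusted p = 3.16e-08) and 4.35 (SE 0.15, adjusted p = 2.97e-07), factors of 22.9 and 20.4. Among 18193 genes, these were the 4th and the 3rd largest rises in NOD over C57BL/6 by rank. Melk has 1 probe set on the array, so no other probe set of the gene could be compared.

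Tpx2 stood at 9.59, 9.68, 9.95 and 9.96 in the C57BL/6 PBS arrays and at 10.54, 10.80, 11.01 and 11.39 in the NOD PBS arrays. The strains did not overlap (log2 difference 1.14, SE 0.17, adjusted p = 0.00207), nor did they with LPS, at 8.40 to 9.34 and 9.94 to 10.79 (log2 difference 1.37, SE 0.26, adjusted p = 0.0104). Of the 3 other Tpx2 probe sets, 1 was also higher in PBS culture, by 1.23, and none with LPS, where that probe set differed by 0.44. Mki67 was at 9.84, 10.05, 10.14 and 10.42 in C57BL/6 and at 10.44, 10.73, 11.01 and 11.29 in NOD in PBS culture, so the lowest NOD array lay just above the highest C57BL/6 array. Its difference was 0.76 (SE 0.19, adjusted p = 0.0318) in PBS culture and 0.78 (SE 0.19, adjusted p = 0.0343) with LPS, and the latter was lost without either C57BL/6 LPS replicate 3 or replicate 4.

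**Figure D3:**
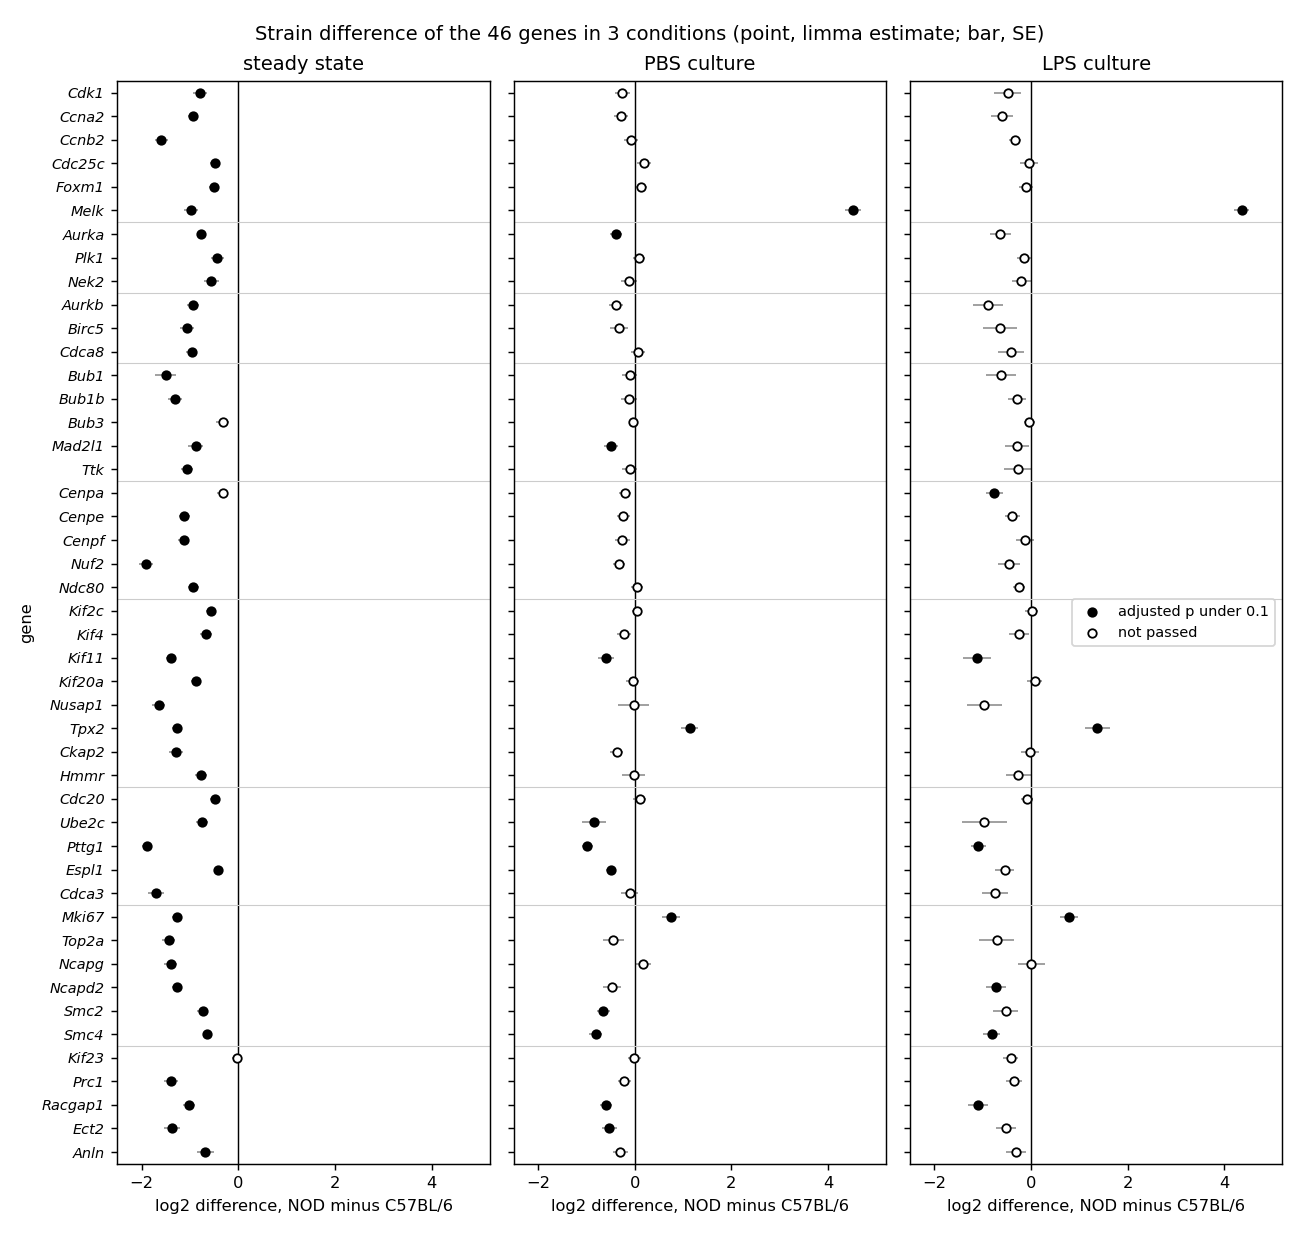
Points give the log2 difference NOD minus C57BL/6 of each of the 46 genes at steady state (left), in PBS culture (middle) and in LPS culture (right), with bars of 1 SE, filled where the adjusted p was under 0.1 and open where it was not. At steady state 43 points are filled and all lie left of 0. In culture most points are open, though 35 of the 46 in PBS and 40 with LPS lie left of 0. Melk lies far to the right in culture, at 4.52 and 4.35.

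The change from steady state to PBS culture was large in both strains. This comparison and the steady state strain comparison share arrays, so they are not independent of each other. In C57BL/6, 44 of the 46 genes fell and 2 rose, where 32.3% of all genes fell and 44.6% rose, and the median was −1.73, a factor of 3.31, beside 0.17 over all genes. In NOD 33 fell and 5 rose, against 30.0% and 41.6% of all genes (71.6% in either direction), with a median of −0.92. Without the dimmer 50% of probe sets 26 members were tested in NOD, of which 17 fell and 4 rose. Of all 45037 probe sets 13754 fell and 18981 rose in C57BL/6, and 13194 fell and 17028 rose in NOD. Some further probe sets of the members went against the brightest one of their gene. In C57BL/6 37 of the 60 fell and 8 rose, and 7 were called opposite to the brightest, in Bub1b (0.29), Cdca3 (0.38), Foxm1 (0.26), Kif2c (0.40), Nek2 (0.46), Top2a (0.90) and Tpx2. In NOD 29 fell and 13 rose, and 3 were called opposite, 1 in Cdca3 (0.31) and 2 in Nek2 (0.28 and 0.57). Between 3 and 6 of the 46 genes lay under the lower quartile of their array in PBS culture, against 0 to 2 at steady state, and differences of such dim genes can be understated.

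Of the role groups, the passenger complex and cytokinesis had the largest median falls in culture in both strains, at −2.72 and −2.45 in C57BL/6 and −1.99 and −2.02 in NOD. Cdca8 went from 11.65, 11.66, 11.80 and 11.99 at steady state to 8.43, 8.68, 8.69 and 8.96 in PBS in C57BL/6, and from 10.69, 10.86 and 10.89 to 8.61, 8.62, 8.73 and 9.06 in NOD. The drop was clear of overlap in each strain and came to −3.09 (SE 0.13, adjusted p = 3.5e-09) and −2.06 (SE 0.14, adjusted p = 1.95e-07). Birc5 (−2.72 in C57BL/6, −1.99 in NOD), Ect2 (−2.88 and −2.02) and Anln, a scaffold of the contractile ring (−2.74 and −2.36), fell likewise. Espl1 (−2.41 and −2.48) and Kif23 (−2.45 and −2.43) fell by nearly equal amounts in the strains. The 3 mitotic kinases had medians of −0.76 and −0.38.

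Pttg1 rose in culture in both strains, and Tpx2 rose in NOD and, by its brightest probe set but not by the next, in C57BL/6. Pttg1 went from 12.98 to 13.18 at steady state to 13.74 to 13.93 in PBS in C57BL/6, and from 11.09 to 11.28 to 12.70 to 13.10 in NOD. Neither pair of ranges overlapped, and the rises were 0.76 (SE 0.099, adjusted p = 3.79e-05) and 1.68 (SE 0.13, adjusted p = 6.82e-07), with all 3 probe sets higher in each strain. Tpx2 rose by 3.18 in NOD (SE 0.18, adjusted p = 4.87e-08), where all 4 of its probe sets were higher. In C57BL/6 Tpx2 rose by 0.78 (SE 0.12, adjusted p = 1.31e-04), but its next brightest probe set fell by −1.44 and the mean over its probe sets was −0.01, so the direction of Tpx2 in C57BL/6 depended on the probe set.

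Melk, Cdc25c and, by its brightest probe set, Foxm1 rose in NOD and fell in C57BL/6. Of the 4 Foxm1 probe sets, 2 rose in NOD, and in C57BL/6 3 fell and 1 rose. Melk rose by 4.20 in NOD (SE 0.13, adjusted p = 4.56e-10), from 7.63 to 7.88 at steady state to 11.83 to 12.18, and fell by −1.29 in C57BL/6 (SE 0.18, adjusted p = 5.85e-05). Foxm1 (0.36) and Cdc25c (0.28) rose slightly in NOD and fell slightly in C57BL/6 (−0.27 and −0.39), and their strain by culture interactions were 0.64 and 0.67. Mki67 fell by −2.02 in C57BL/6 and differed by 0.01 in NOD (adjusted p = 0.98), where its arrays were at 10.79, 10.85 and 10.96 before and 10.44 to 11.29 after culture.

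The change in culture itself differed between the strains for 28 of the 46 genes, as tested by the strain by culture interaction, and the difference was positive, meaning a smaller fall or a larger rise in NOD, in all 28. Of all genes 7.81% passed, 4.91% with a positive and 2.89% with a negative interaction. The same value is the strain difference in PBS culture minus that at steady state. Over the 46 genes those differences had medians of −0.21 and −0.95. The steady state gap therefore enters every interaction, and these calls are not separate from it. With the replicate number as a block within each strain, a fit added after seeing the data, 8 of the 46 genes passed, all positive. Only 2 replicate numbers per strain are shared between steady state and PBS culture, and this block drops the other arrays from the estimate. The effects of the block and of fewer arrays on the count cannot be told apart. Without a block the median over the 46 genes was 0.77. Melk had the largest interaction of all 18193 genes at 5.50 (SE 0.23, adjusted p = 7.76e-10). Tpx2 followed among the members at 2.40 (SE 0.22, adjusted p = 3e-06) and Mki67 at 2.03 (SE 0.23, adjusted p = 2.92e-05).

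Further members with large interactions, into which the steady state arrays of the strain comparison also enter, were Nusap1 (1.62), Cdca3 (1.60), Nuf2 (1.59), Ncapg (1.57), Ccnb2 (1.52) and Bub1 (1.40). By role, 5 of 6 genes of entry, 6 of 8 of the spindle, 4 of 5 of the kinetochore, 4 of 6 of chromosome structure, 3 of 5 each of the checkpoint and of anaphase, 2 of 5 of cytokinesis, 1 of 3 of the passenger complex and none of the 3 kinases passed. For the kinases the interactions were 0.39 for Aurka (adjusted p = 0.18), 0.52 for Plk1 (adjusted p = 0.16) and 0.44 for Nek2 (adjusted p = 0.40). Of the 16 NK cell and ILC markers 1 had an interaction that passed, and 11 of the 16 values were negative, with a median of −0.19.

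**Figure D4:**
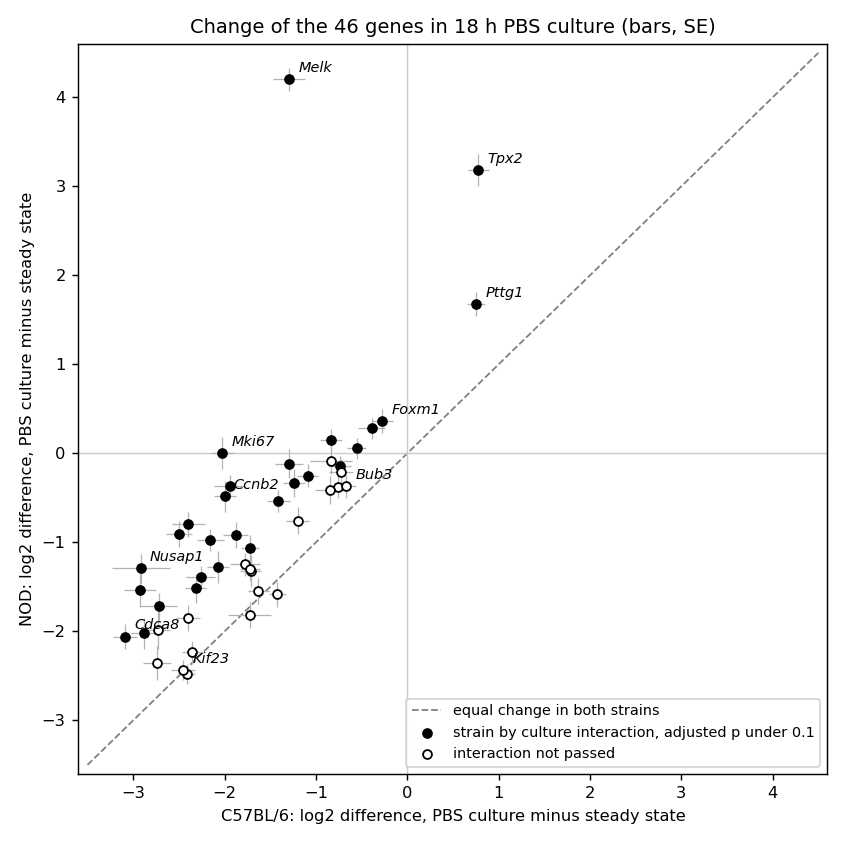
Each point is 1 of the 46 genes, with its log2 change from steady state to 18 h of PBS culture in C57BL/6 on the horizontal axis and in NOD on the vertical axis, bars of 1 SE, a dashed line for equal change, and filled points where the strain by culture interaction passed. Nearly all points lie above the dashed line, Melk (−1.29 and 4.20) and Tpx2 (0.78 and 3.18) farthest from it, and Kif23 and Bub3 close to it.

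The other mitosis and S phase lists fell in larger part than they rose in culture, while G1 genes and brakes went both ways. Of all genes 32.3% fell and 44.6% rose in C57BL/6, and 30.0% fell and 41.6% rose in NOD. Of 77 other mitosis genes 53 fell and 12 rose in C57BL/6, with a median of −0.92, and 43 fell and 16 rose in NOD, with a median of −0.44. Of 41 S phase genes 31 fell and 5 rose in C57BL/6 and 22 fell and 9 rose in NOD, with medians of −0.87 and −0.52. Of 12 G1 genes 6 fell and 3 rose in C57BL/6 and 5 fell and 3 rose in NOD. Of 25 brakes 13 fell and 9 rose in C57BL/6, with a median of −0.38, and 10 fell and 9 rose in NOD, with a median of −0.03. Among the brakes, Cdkn1a, the p21 inhibitor of cyclin-dependent kinases, rose by 2.81 in C57BL/6 and 3.25 in NOD and the stress gene Gadd45b by 3.72 and 3.52, while Cdkn2c fell by −2.28 and −1.37. NK cell and ILC markers had 5 lower and 7 higher of 16 in C57BL/6 and 4 lower and 5 higher in NOD, with medians of 0.09 and 0.24. Their summed linear level was higher after culture in both strains, without overlap. It was 11857 to 14188 at steady state and 22261 to 32211 in PBS in C57BL/6, and 7044 to 8134 and 16637 to 24356 in NOD. Macrophage and monocyte markers fell in 14 of 18 cases in C57BL/6 and 12 in NOD (medians −1.27 and −1.50), DC markers in 9 and 10 of 15 (medians −0.74 and −0.79), and acinar and islet transcripts in 7 of 9 in each strain (medians −2.46 and −2.40). B cell markers had none lower and 4 higher of 10 in C57BL/6 and 2 lower and 2 higher in NOD, and T cell markers 2 lower and 3 higher of 10 in C57BL/6 and 3 lower and 1 higher in NOD. The part of these cells in the members' fall was not tested.

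With LPS, set against PBS culture, most members did not pass the test, and those that passed were higher. In C57BL/6, 9 of the 46 genes rose and none fell, where 0.945% of all genes rose and 0.868% fell (1.81% in all), and 42 of the 46 differences were positive with a median of 0.43. For 22 genes every LPS array lay above every PBS array, against 6.05% of all genes. The risen genes were Mki67 (1.32), Kif11 (1.13), Ncapd2 (1.11), Birc5 (1.09), Cdca8 (1.01), Bub1 (1.00), Aurkb (0.86), Ccna2 (0.76) and Ccnb2 (0.64). They include all 3 passenger complex genes of the 46. Few arrays carried these calls. The count was 3 without C57BL/6 PBS replicate 1 or C57BL/6 LPS replicate 2, 4 without C57BL/6 LPS replicate 3 and 5 without C57BL/6 PBS replicate 4.

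In NOD 3 genes rose with LPS and none fell, against 1.93% and 2.46% of all genes (4.40% in all), and 39 of the 46 differences were positive with a median of 0.29. Mki67 went from 10.44, 10.73, 11.01 and 11.29 in PBS to 12.01, 12.05, 12.12 and 12.66 with LPS. Its ranges were separate, and the rise was 1.34 (SE 0.19, adjusted p = 0.00578), close to that in C57BL/6, where Mki67 went from 9.84 to 10.42 up to 11.17, 11.39 and 11.72 (log2 difference 1.32, SE 0.18, adjusted p = 0.0214). Ncapd2 (0.85) and Ttk, the checkpoint kinase Mps1 (0.66), were the other 2 risen genes in NOD. The count was 1, Mki67 alone, without NOD LPS replicate 1, when the median was 0.15. It was also 1 without NOD LPS replicate 3, NOD PBS replicate 1 or NOD PBS replicate 4. With the replicate number as a block 9 genes were called, 7 higher and 2 lower, the lower being Melk (−0.36) and Tpx2 (−0.59). The share of all genes called was not computed for that fit.

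No member had a strain by LPS interaction by limma, where 1 had an unadjusted p under 0.05 and 0.0220% of all genes passed, 0.0165% higher and 0.00550% lower. The median interaction was −0.17, and it was −0.31 without NOD LPS replicate 1 and −0.09 without NOD LPS replicate 4. None of the 10 B cell markers passed for LPS against PBS in either strain by limma. Their differences were positive in 9 of 10 cases in C57BL/6, with a median of 0.40 and summed levels of 5324 to 8878 with LPS against 3845 to 6822 in PBS, and in 10 of 10 in NOD, with a median of 0.21. Without NOD LPS replicate 1 the NOD values were positive in 7 of 10 cases, with a median of 0.07. The part of these cells in the members' LPS differences was not tested.

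**Figure D5:**
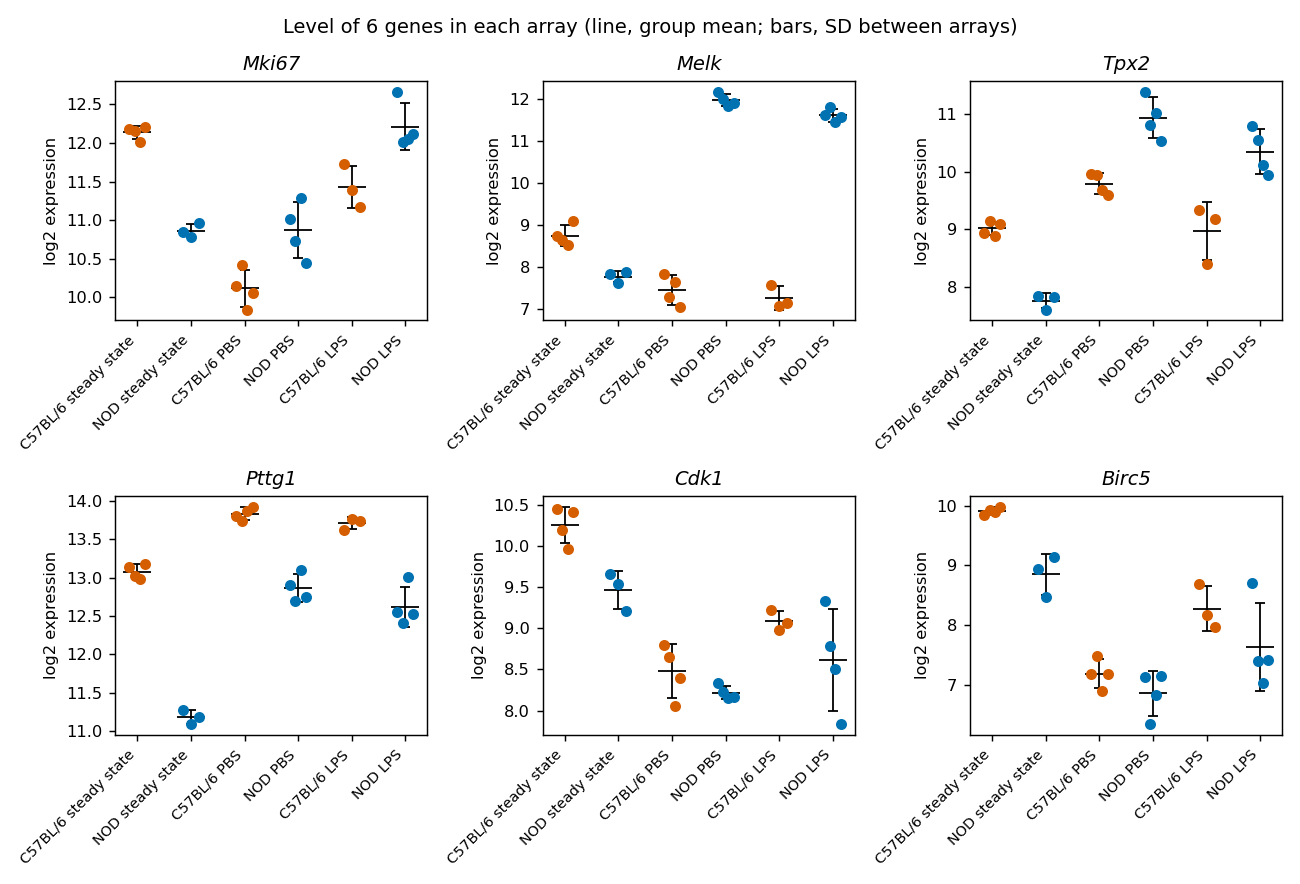
Log2 expression of Mki67, Melk, Tpx2, Pttg1, Cdk1 and Birc5 in every array (points, C57BL/6 in orange and NOD in blue), with the group mean (line) and SD between arrays (bars), in the 6 groups from steady state to LPS. Mki67 is higher with LPS than with PBS in both strains, Melk lies below C57BL/6 in NOD at steady state and far above it in culture, Pttg1 stays lower in NOD throughout, and Cdk1 and Birc5 fall in culture in both strains. The vertical axes differ between genes and do not start at 0.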

How the data were processed

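Total RNA of 22 samples of sorted cells was amplified and hybridised to Affymetrix Mouse Genome 430 2.0 arrays. The authors summarised the arrays with RMA (version not given in the sources used here), and the deposited unit is log2 expression. Columns were matched to samples by their record numbers, and groups and replicate numbers come from the sample titles. The table holds 45101 probe sets; the 64 whose names start with AFFX are controls and were dropped, which left 45037 for testing. A gene is its brightest probe set (mean over 22 arrays) among the 34945 that name 1 gene.

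Tests used limma 3.58.1 (R 4.3.3), with only the groups of a comparison in its fit, unpaired, with no intensity filter, and Benjamini-Hochberg adjusted p-values under 0.1 were called. Limma stands in for the multivariate permutation test of the study, which was not run. The interactions were fitted over the 4 groups they compare. SE is the moderated standard error, SD the spread between arrays, and summed levels are sums of 2 to the power of the log2 values. The number of arrays limits the precision. The code was tested on simulated data.

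Genes named were, by rule, the 2 members of each role with the largest steady state difference, Mki67, Cdk1, Top2a and Bub3, the 3 members with the largest difference in each other comparison, and members called against the majority. The other members, given mostly as single differences, were named after their values were seen. The members, the gene lists, the roles and the tests were chosen with earlier results of these data known, so no list is independent of them. No p-value was computed over a list. Deviations of arrays of the same replicate number had positive correlations between the strains. These were 0.109 to 0.433 at steady state, 0.137 to 0.320 in PBS and 0.114 to 0.345 with LPS. Between LPS and PBS they were 0.241 to 0.487 in NOD and 0.259 to 0.423 in C57BL/6. Arrays of different numbers were not compared in this way, so the values do not show that the numbers mark pairs. The blocked fits took arrays of the same number as pairs. Alternatives were an adjusted p under 0.05, leaving out the dimmer 50% of probe sets, the replicate block, each array left out, averaging a gene's probe sets, a robust spread with an intensity trend, subtracting each array's median, and fitting the 22 arrays jointly. A block within each strain for the interactions was added after seeing the data.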

Additional observations from a re-analysis of the deposited data

Results flagged for a closer look

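The strain by culture interaction, into which the steady state strain difference also enters, passed for 28 members. Its value was 5.50 for Melk, 2.40 for Tpx2, 2.03 for Mki67, 1.62 for Nusap1, 1.60 for Cdca3, 1.59 for Nuf2, 1.57 for Ncapg, 1.52 for Ccnb2, 1.40 for Bub1, 0.67 for Cdc25c and 0.64 for Foxm1, each from the interaction term itself.

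Of 160 values tested in groups of 4 arrays, 10 lay far from the other 3 arrays of their group by Dixon's criterion, which chance alone gives in about 1 of 20 groups. At steady state it was Ncapg in C57BL/6 replicate 6 (10.43). In C57BL/6 PBS culture they were Nusap1 in replicate 3 (5.84), Kif23 in replicate 3 (8.12), Ncapg in replicate 2 (8.55), Smc2 in replicate 2 (7.55) and Ube2c in replicate 4 (8.41). In NOD PBS culture it was Anln in replicate 4 (6.30). In NOD LPS culture Aurka (8.44), Mki67 (12.66) and Smc4 (10.58) were all high in replicate 1, the array in which 39 of the 46 genes were the highest of their group.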

How the results depend on the processing

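With 3 or 4 arrays per group, a difference that did not pass is not shown to be absent, and dim probe sets can understate a change. When a gene's probe sets were averaged, the median member difference was −0.79 at steady state, −0.13 for the strains in PBS culture, −1.51 for culture in C57BL/6 and −0.62 for culture in NOD. Called members numbered 8 for the strains in PBS and 1 for LPS in NOD at an adjusted p under 0.05. Without the dimmer 50% of probe sets they numbered 7 of 19 members tested for the strains in PBS, 1 of 20 for LPS in NOD and 21 of 26 for culture in NOD. In 1 fit of all 22 arrays 17 were called for the strains with LPS and 20 for LPS in C57BL/6. With the replicate number as a block 29 were called for the strains with LPS, where the block also drops NOD LPS replicate 1, and 9 for LPS in NOD, the median of culture in NOD was −0.84, and the block within each strain left 8 of the strain by culture interactions. For culture against steady state only 2 numbers per strain were shared (correlations −0.0328 and 0.177 in C57BL/6, 0.0996 and 0.277 in NOD). The block for culture in NOD and the block within each strain rest on these pairs and drop the other arrays from the estimate. Pairing and the loss of arrays cannot be told apart there. The block moved no other member count by over 1.5 times. For these alternative settings the share of all genes called was not computed, so their member counts have no such share beside them.

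Leaving out 1 array at a time gave 8 to 13 members for the strains in PBS, 7 to 23 with LPS, 1 to 2 for LPS in NOD, 3 to 10 for LPS in C57BL/6 and a median of −0.999 to −0.826 for culture in NOD. A sign changed for 3 of 108 gene values. Kif23 at steady state was 0.154 with its probe sets averaged and ranged from −0.0471 to 0.0321 without 1 array. Tpx2 in C57BL/6 culture was −0.00706 with its probe sets averaged. Mki67 in NOD culture was −0.0913 with the block and ranged from −0.136 to 0.147 without 1 array. The cause was not tested for any of these.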
